A study of Mus musculus with 16 samples.

Results

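The genes described here form a block of neighbouring protein-coding genes on mouse chromosome 14, most of which were expressed at a higher level in Dgcr8 knockout (KO) than in wild-type (WT) embryonic stem cells (ESCs). The block was delimited by position and expression: gene starts from 43925390 to 63193856 (GRCm38, GENCODE M21 annotation), a span of 19.3 Mb, and a mean of at least 8 CPM (counts scaled to a fixed library total) over the 16 libraries. Of 305 protein-coding genes in that interval 122 reached this level, and 183 did not. Otx2, Atg14, Dlgap5, Lats2, Pck2, Ctsb, Fdft1 and genes whose symbols start with Mrp or Psm were left out by rule, 13 in all, which left 109 genes of 18944 tested. The interval was chosen on the difference between KO and WT in these same libraries, so values of that difference describe the members and are given with no test.

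Messenger RNA of mouse ESCs, pluripotent cells of the early embryo, was sequenced after poly(A) selection in 4 groups of 4 libraries. The groups were Dgcr8 KO cells under mTOR inhibition (mTORi), WT cells under mTOR inhibition, Dgcr8 KO cells in normal ESC culture and WT cells in normal ESC culture, each from 800000 cells at day 2. The KO cells are of a line the labels call KO24. The labels give neither the deleted part of Dgcr8, nor whether the line is 1 clone, nor the strain, nor the mTOR inhibitor, nor whether replicates were separate cultures. P-values therefore reflect no more than the variation among these libraries, and that variation may be technical. In bulk samples, more RNA of a gene per cell and more cells that express it cannot be told apart.

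Dgcr8 binds RNA and works with the nuclease Drosha, and together they cut the hairpins of most primary microRNA transcripts, so cells that lack it make few canonical microRNAs. In ESCs the most abundant of these belong to the miR-290 and miR-302 clusters, which share a seed sequence and dampen many messages. The kinase mTOR couples growth and translation to nutrients, and its inhibition holds ESCs in a slowed state that resembles embryonic diapause, called pausing. Genes that lie side by side on a chromosome commonly have unrelated functions, and the block holds DNA repair enzymes, RNA-processing factors, ubiquitin ligases, signalling proteins and metabolic enzymes.

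The libraries held 88377380 to 116646028 estimated counts. Dgcr8 itself (chromosome 16) was higher in the KO libraries, with 173 to 187 CPM in KO and 50.8 to 56.2 CPM in WT under mTOR inhibition, and 246 to 256 CPM in KO and 45.3 to 49.2 CPM in WT in normal culture. Because the deleted part is not stated, this level was not used as a check of the genotype. The 8 ESC markers examined summed to 6200 to 6490 CPM in KO and 6380 to 6650 CPM in WT libraries under mTOR inhibition, and to 5520 to 5700 CPM in KO and 5210 to 5560 CPM in WT libraries in normal culture. The 7 fibroblast markers summed to 20.1 to 22.5 CPM in KO and 10.9 to 11.3 CPM in WT under mTOR inhibition, and to 29.7 to 32.7 CPM in KO and 11.7 to 15.3 CPM in WT in normal culture, with Col1a2, Col3a1, Postn, Lum and Dcn under 1 CPM in each group. The 6 endoderm markers summed to 16.1 to 19.2 CPM in KO and 25.7 to 37.0 CPM in WT under mTOR inhibition, and to 11.4 to 13.7 CPM in KO and 23.5 to 36.2 CPM in WT in normal culture. The 6 trophoblast markers summed to 39.6 to 51.5 CPM in KO and 28.8 to 37.8 CPM in WT under mTOR inhibition, and 29 to 29.2 CPM in KO and 21.9 to 34.9 CPM in WT in normal culture. Foxa2 of endoderm and Cdx2 and Elf5 of trophoblast were under 1 CPM in each group. The part of such cells in the values below was not tested. WT libraries in normal culture fell into pairs, replicates 1 and 2 against 3 and 4, and the median over genes of their chi-square distance was 1.88 to 2.16 inside a pair and 7.54 to 10.6 between pairs. In the other 3 groups pairs of libraries lay at 1.21 to 4.81, and sampling noise alone gives 0.455. The same split showed, less widely, for WT under mTOR inhibition (1.21 to 1.83 inside pairs, 3.06 to 3.91 between). Normal culture gave it for KO too (1.79 to 2.45 inside, 3.09 to 4.81 between). For KO under mTOR inhibition the ranges overlapped (2.82 to 3.05 inside, 1.96 to 4.28 between).

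Members of the block shared a shift of nearly 1 on the log2 scale. Their summed level was 7740 ± 82.0 CPM in KO and 4473 ± 37.6 CPM in WT libraries under mTOR inhibition, and 8508 ± 119 CPM in KO and 4863 ± 77.2 CPM in WT libraries in normal culture (SD, n = 4). No KO library came near a WT library in either culture. The median log2 fold change over the 109 members, KO over WT, was 0.90 under mTOR inhibition (quartiles 0.64 and 1.11) and 0.94 in normal culture (quartiles 0.73 and 1.22), or 1.86-fold and 1.91-fold. The same median over all 18944 genes tested was −0.03 in both cultures. Over protein-coding genes with at least 8 CPM it was 0.02 under mTOR inhibition and 0.09 in normal culture, and over the 213 such genes on the rest of chromosome 14 it was 0.04 under mTOR inhibition and 0.09 in normal culture. Replicates 1 and 2 alone gave 0.86 under mTOR inhibition and 0.94 in normal culture, and replicates 3 and 4 alone gave 0.93 in each.

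**Figure D1:**
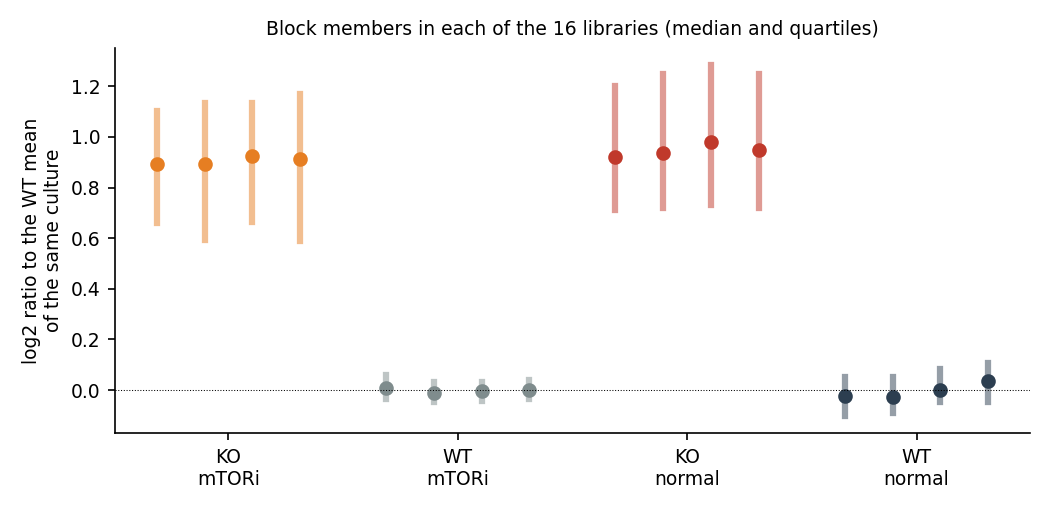
Median (point) and quartiles (bar) over the 109 block members of the log2 ratio of a library's CPM to the WT mean of the same culture, for each of the 16 libraries. KO libraries lie between 0.89 and 0.98, and WT libraries between −0.03 and 0.04.

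The shift was general among the members. All 4 KO libraries lay above all 4 WT libraries under mTOR inhibition for 100 of 109 members (30.5% of all genes tested did so), and in normal culture for 104 of 109 (31.0% of all genes). In both cultures together this held for 100 members, against 21.0% of all genes tested. All 4 KO libraries lay below WT for 4 members under mTOR inhibition (32.9% of all genes) and for 3 in normal culture (29.5%). Since the interval was chosen on this contrast, these counts are a description. The log2 fold change was above 0 in both cultures for 103 members, between 0.5 and 1.5 in both for 67, at least 1 in both for 32 and at least 2 in both for 2, Rec8 among them. The 4 members below 0 in both were Gm8113, Lgals3, Pnp and Gm49342. Standard errors of single members had a median of 0.06 in each culture, whereas the SD between members was 0.54 under mTOR inhibition and 0.57 in normal culture, so members differed from each other by more than the error of a single value. Across members both cultures gave similar values, with Pearson's r = 0.731 and Spearman's rho = 0.622 over the 109 genes, which share their libraries and are not independent. Over the 9518 protein-coding genes with at least 8 CPM, r was 0.826 and rho was 0.71.

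The spread between members was smallest among those with most counts. The 37 members with most counts (52.0 to 557 CPM) had an SD between members of 0.42 under mTOR inhibition and 0.35 in normal culture, around medians of 0.80 under mTOR inhibition and 0.85 in normal culture. The 36 with the fewest (8.21 to 19.6 CPM) had an SD of 0.56 under mTOR inhibition and 0.72 in normal culture, around medians of 0.85 under mTOR inhibition and 0.97 in normal culture. The 36 between them (19.9 to 51.9 CPM) had an SD of 0.62 under mTOR inhibition and 0.56 in normal culture. Their medians were 1.00 under mTOR inhibition and 1.02 in normal culture. Medians of these sets lay close to that of the whole block. The CPM limit was a mean over both genotypes, so genes low in WT could enter the set with fewest counts through KO. What this adds to the spread of that set was not tested.

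Along the chromosome, the running median over 11 genes lay between 0.45 and 1.24 at the members under mTOR inhibition and between 0.51 and 1.60 in normal culture. Elsewhere on chromosome 14 it lay between −0.28 and 0.36 under mTOR inhibition and between −0.24 and 0.51 in normal culture. The members fall into 5 runs separated by gaps of over 1 Mb. Gm8113 stands alone at the low end. The run of 19 genes from Txndc16 to Naa30 (starts 45133465 to 49172226) had medians of 0.99 under mTOR inhibition and 1.01 in normal culture. The run of 18 genes from Ttc5 to Mettl3 (50765415 to 52294841) had 0.69 under mTOR inhibition and 0.77 in normal culture, the lowest of the 4 larger runs in each culture. The run of 52 genes from Dad1 to Micu2 (54235479 to 57916261) had 0.87 under mTOR inhibition and 0.94 in normal culture, and the run of 19 genes from Rcbtb1 to Neil2 (59201209 to 63182443) had 1.00 in each. Every larger run held members with values far from its median, as the plot along the chromosome shows.

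**Figure D2:**
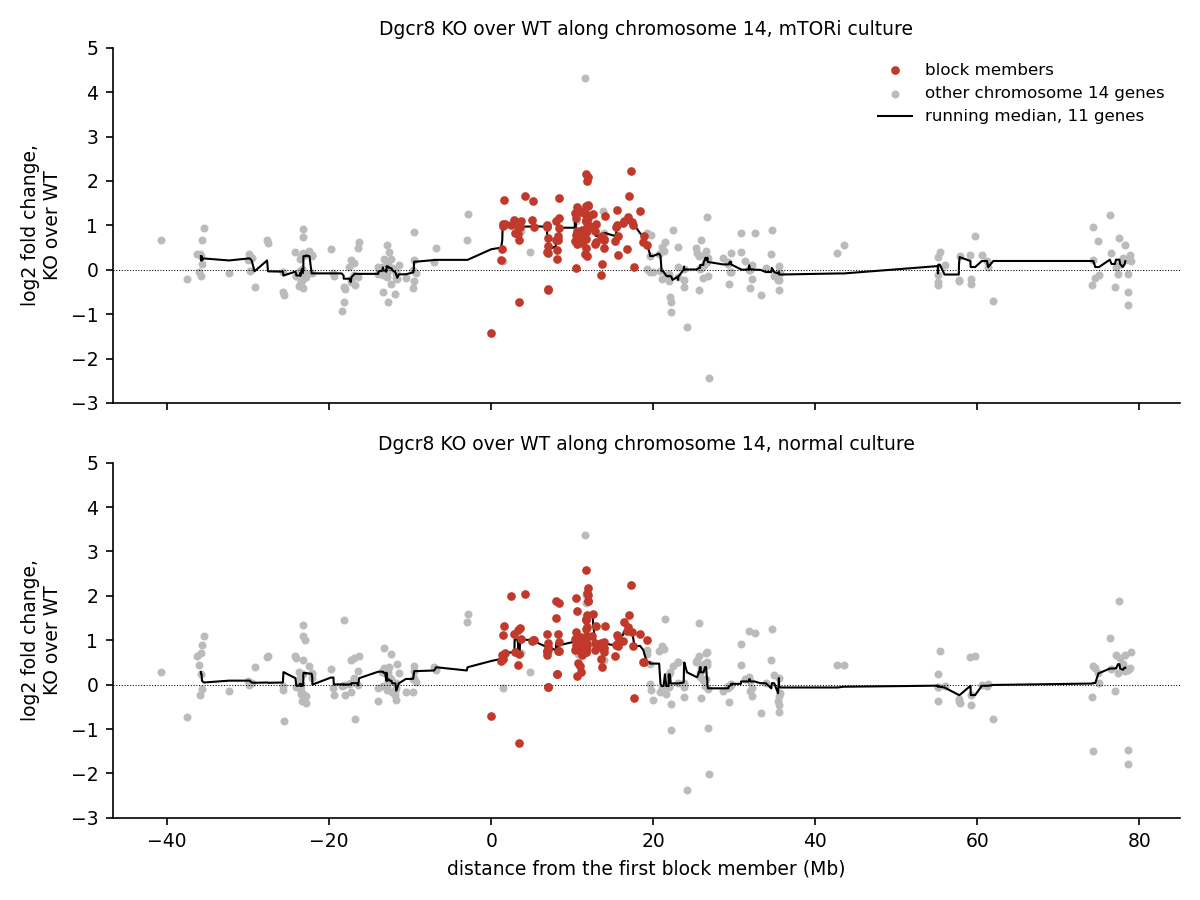
Log2 fold change, KO over WT, of protein-coding genes with at least 8 CPM along chromosome 14, under mTOR inhibition (top) and in normal culture (bottom), against the distance in Mb from the first member. Red points are block members, grey points are other genes of the chromosome (those left out by rule included), and the line is the running median over 11 genes, which lies at 0.45 to 1.60 at the members and at −0.28 to 0.51 elsewhere.

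The ends of the block were not sharp. Just outside the low end, Tspan14 had 0.67 ± 0.10 under mTOR inhibition and 1.41 ± 0.10 in normal culture (log2 fold change ± SE), and Fam213a had 1.25 ± 0.06 under mTOR inhibition and 1.60 ± 0.06 in normal culture, both above the members inside that end. Inside it, Txndc16 had 0.22 ± 0.07 under mTOR inhibition and 0.53 ± 0.08 in normal culture, and Gm8113 was lower in KO. Inside the high end, Wdfy2, a protein of early endosomes, had 0.75 ± 0.06 under mTOR inhibition and 0.51 ± 0.06 in normal culture, and the DNA glycosylase Neil2 had 0.55 ± 0.09 under mTOR inhibition and 1.00 ± 0.10 in normal culture. Outside it, threonine dehydrogenase (Tdh) had 0.31 ± 0.06 under mTOR inhibition and 0.47 ± 0.06 in normal culture, and Mtmr9 had −0.05 ± 0.03 under mTOR inhibition and 0.01 ± 0.03 in normal culture. At the CPM limit, Txndc16 (8.21 CPM) and Ap1g2 (8.72 CPM; 0.90 ± 0.08 under mTOR inhibition and 0.69 ± 0.08 in normal culture) were just inside. Homez (7.55 CPM) was just outside with 1.56 ± 0.10 under mTOR inhibition and 1.57 ± 0.10 in normal culture, and Efs (7.64 CPM) with 0.24 ± 0.13 under mTOR inhibition and 0.14 ± 0.13 in normal culture. The 13 genes of the interval that were left out by rule had medians of 0.84 under mTOR inhibition and 0.78 in normal culture, and all 13 lay above 0 under mTOR inhibition and 12 in normal culture, Psmc6 being the one below. Pck2 was the highest of them, with 4.32 ± 0.12 under mTOR inhibition and 3.37 ± 0.11 in normal culture.

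A shared shift was not particular to this chromosome. Among the other 20 chromosomes, counting the mitochondrial one, medians of protein-coding genes with at least 8 CPM ran from −0.08 to 0.61 under mTOR inhibition and from −0.07 to 0.67 in normal culture. Chromosome 1 was the highest, with 0.61 under mTOR inhibition and 0.67 in normal culture over 536 genes, and its highest running median over 51 genes was 0.88 under mTOR inhibition and 0.87 in normal culture. The mitochondrial chromosome came next with 0.14 in each culture over 13 genes.

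To describe which genes followed, exceeded or escaped the shared shift, each member was compared with the median of the members in both cultures, with a margin of 0.3 on the log2 scale. By this division 45 members followed the shift in both cultures, with class medians of 0.90 under mTOR inhibition and 0.93 in normal culture. Another 15 exceeded it in both, with medians of 1.57 under mTOR inhibition and 1.65 in normal culture, and 10 escaped it in both, with medians of −0.02 under mTOR inhibition and 0.09 in normal culture. The remaining 39 were split, lying in different classes in the cultures, with medians of 0.80 under mTOR inhibition and 1.01 in normal culture. The margin sets these numbers. With 0.2 it gave 22 that followed and 18 that escaped, and with 0.5 it gave 69 that followed. When each of the 16 libraries was left out in turn, 38 of the 45, 13 of the 15, all 10 and 30 of the 39 stayed in their class in every fit.

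**Figure D3:**
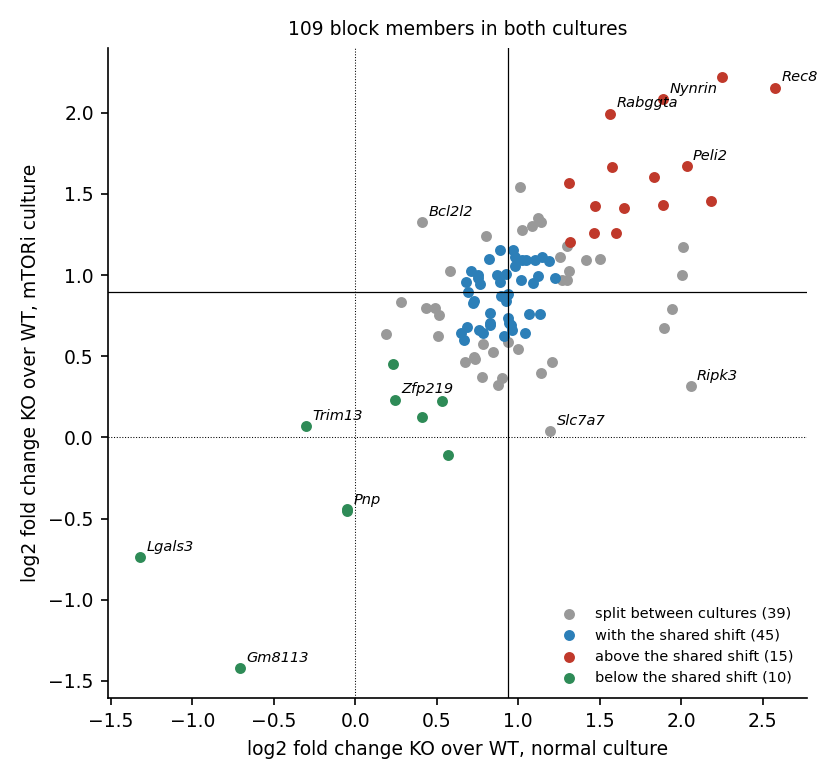
Log2 fold change, KO over WT, of the 109 members in normal culture (horizontal axis) and under mTOR inhibition (vertical axis), coloured by class. Solid lines mark the medians of the members, 0.90 under mTOR inhibition and 0.94 in normal culture. The 15 members above the shared shift reach 2.57 (Rec8, normal culture) and the 10 below it reach −1.42 (Gm8113, mTOR inhibition).

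By the mean of both cultures, the members closest to the median of the block were Nop9, Ttc5 and 1700123O20Rik, and all of them followed the shift. Nop9, an RNA-binding protein known from yeast for its part in making the small ribosomal subunit (ENSMUSG00000019297.9, 55745693 to 55755500), showed the pattern most plainly. Under mTOR inhibition Nop9 had 86.5, 81.7, 88.9 and 82.5 CPM in the KO libraries, against 49.2, 46, 44.6 and 46 CPM in WT. In normal culture Nop9 had 135, 132, 135 and 136 CPM in KO, against 71.6, 72.5, 72.2 and 73.7 CPM in WT. Its KO libraries thus lay above WT in each culture, with a log2 fold change of 0.87 ± 0.04 under mTOR inhibition and 0.89 ± 0.04 in normal culture (SE), while in each genotype the level was lower under mTOR inhibition. Ttc5, a tetratricopeptide protein known from human cells for binding nascent tubulin, had 71.9 ± 0.62 CPM in KO and 36 ± 1.25 CPM in WT under mTOR inhibition, and 49.1 ± 1.11 CPM in KO and 29.2 ± 1.6 CPM in WT in normal culture (SD, n = 4). Among the most abundant messages, Pabpn1, the nuclear poly(A)-binding protein, also followed. Under mTOR inhibition Pabpn1 had 238, 231, 252 and 246 CPM in the KO libraries, against 147, 144, 152 and 155 CPM in WT. In normal culture Pabpn1 had 294, 283, 292 and 293 CPM in KO, against 153, 165, 168 and 169.7 CPM in WT. The groups did not overlap in either culture, although 1 KO library in normal culture lay below the other three, and the log2 fold changes were 0.69 ± 0.04 under mTOR inhibition and 0.83 ± 0.04 in normal culture. Pabpn1 overlaps a read-through gene model (Gm20521) on its own strand, so its count is uncertain.

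Followers were spread over all 7 role lists, with 8 in chromatin and transcription, 6 each in RNA processing and transport, in protein turnover, folding and trafficking and in metabolism, 4 in signalling and adhesion, and 3 each in DNA repair and in the cell cycle. The importin Kpna3 had 120.0 to 123 CPM in KO and 58.1 to 62.8 CPM in WT libraries under mTOR inhibition, and 218 to 220.2 CPM in KO and 114 to 126 CPM in WT libraries in normal culture. Exoc5, a subunit of the exocyst that tethers secretory vesicles, had 33 to 35 CPM in KO and 14.8 to 16.5 CPM in WT under mTOR inhibition, and 46.3 to 49.8 CPM in KO and 22.8 to 25.8 CPM in WT in normal culture. For neither gene did the genotypes overlap in either culture. Mettl3, the catalytic subunit of the enzyme that methylates adenosine in mRNA, had 0.95 under mTOR inhibition and 0.76 in normal culture (log2 fold change), and Supt16, a histone chaperone of the FACT complex, had 0.76 under mTOR inhibition and 1.14 in normal culture.

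The 15 members that exceeded the shift included Fermt2, Peli2, Rab2b, Lrp10, Rnf31, Rec8, Tinf2, Rabggta, Nfatc4, Nynrin, Khnyn, Cenpj, Micu2 and Tnfrsf19. Of this class Rec8, Peli2, Rab2b, Tnfrsf19 and Cenpj averaged under 8 CPM in WT in both cultures, and reached the CPM limit through their KO libraries. So did members of other classes, such as Irf9 and Ap1g2. The limit thus favours large ratios among genes low in WT. Rec8, the meiotic member of the cohesin complex that holds sister chromatids together (ENSMUSG00000002324.8, 55618037 to 55625395), was highest by the mean of both cultures. Under mTOR inhibition Rec8 had 13.8, 13.4, 14.5 and 16.2 CPM in the KO libraries, against 3.67, 3.27, 2.98 and 3.09 CPM in WT. In normal culture Rec8 had 23.3, 23.1, 18.9 and 19.9 CPM in KO, against 4.16, 3.38, 3.36 and 3.38 CPM in WT. The groups were far apart in each culture, with a log2 fold change of 2.15 ± 0.10 under mTOR inhibition and 2.58 ± 0.10 in normal culture. Most of its message was the transcript Rec8-201, with 10.2 to 11.8 TPM, a measure of transcript share corrected for length, in KO and 2.14 to 2.62 TPM in WT under mTOR inhibition, and 12.9 to 14.9 TPM in KO and 1.91 to 2.53 TPM in WT in normal culture.

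Nynrin, named for its NYN nuclease-like and integrase-like domains (ENSMUSG00000075592.10, 55854010 to 55874736), differed between cultures as well as between genotypes. Under mTOR inhibition Nynrin had 92.4, 105, 90.3 and 102 CPM in the KO libraries, against 23, 25.1, 21.9 and 22 CPM in WT. In normal culture Nynrin had 44, 46.6, 47.9 and 45.9 CPM in KO, against 11.2, 12.1, 13 and 13.5 CPM in WT. Its level was higher in KO in both cultures, and higher under mTOR inhibition in either genotype. Rabggta, the alpha subunit of the enzyme that attaches lipids to Rab GTPases (ENSMUSG00000040472.15, 55715416 to 55722263), had a log2 fold change of 1.99 ± 0.08 under mTOR inhibition and 1.56 ± 0.08 in normal culture. Under mTOR inhibition Rabggta had 106, 134, 114 and 137 CPM in the KO libraries, against 33.1, 29.5, 30.3 and 30.3 CPM in WT. In normal culture Rabggta had 98.6, 108, 111 and 101 CPM in KO, against 33.3, 33.9, 36.7 and 38.2 CPM in WT. Under mTOR inhibition KO libraries 2 and 4 lay above 1 and 3, yet all lay far above the WT libraries.

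The other members of this class with large values differed in how far they held the shift in each culture. Peli2, an E3 ligase of innate immune signalling, averaged 20.2 ± 2.45 CPM in KO and 6.37 ± 0.5 CPM in WT under mTOR inhibition, and 12.7 ± 0.54 CPM in KO and 3.1 ± 0.19 CPM in WT in normal culture (SD, n = 4). Nfatc4, a transcription factor controlled by calcineurin, averaged 35.7 ± 1.76 CPM in KO and 13 ± 0.59 CPM in WT under mTOR inhibition, and 24.7 ± 0.99 CPM in KO and 5.46 ± 0.44 CPM in WT in normal culture. The ratio of KO to WT was 2.75 under mTOR inhibition and 4.53 in normal culture for Nfatc4, and for Peli2 it was 3.18 under mTOR inhibition and 4.09 in normal culture. Rab2b, a small GTPase of early secretory traffic, averaged 17.3 ± 0.51 CPM in KO and 5.69 ± 0.12 CPM in WT under mTOR inhibition, and 15.4 ± 0.83 CPM in KO and 4.33 ± 0.25 CPM in WT in normal culture. Khnyn, known from human cells as a nuclease that works with the antiviral protein ZAP, had log2 fold changes of 1.43 ± 0.05 under mTOR inhibition and 1.89 ± 0.05 in normal culture. Much of its TPM was Khnyn-203, annotated for nonsense-mediated decay, with 63.3% in KO and 48.8% in WT under mTOR inhibition. In normal culture it made up 58.9% in KO and 52.4% in WT. Khnyn-203 had 7.27 to 7.78 TPM in KO and 2.09 to 2.27 TPM in WT under mTOR inhibition. In normal culture Khnyn-203 had 5.96 to 6.49 TPM in KO and 1.31 to 1.58 TPM in WT. The coding transcript Khnyn-201 had 3.67 to 4.37 TPM in KO and 2.02 to 2.25 TPM in WT under mTOR inhibition. In normal culture it had 3.82 to 4.24 TPM in KO and 0.965 to 1.39 TPM in WT. Micu2, a gatekeeper of the mitochondrial calcium uniporter, lay only just above the margin, with 1.20 ± 0.04 under mTOR inhibition and 1.32 ± 0.05 in normal culture. Cenpj, a protein needed to build centrioles, had 1.26 ± 0.05 under mTOR inhibition and 1.60 ± 0.05 in normal culture. Fermt2, an activator of integrins, had 1.57 under mTOR inhibition and 1.31 in normal culture.

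**Figure D4:**
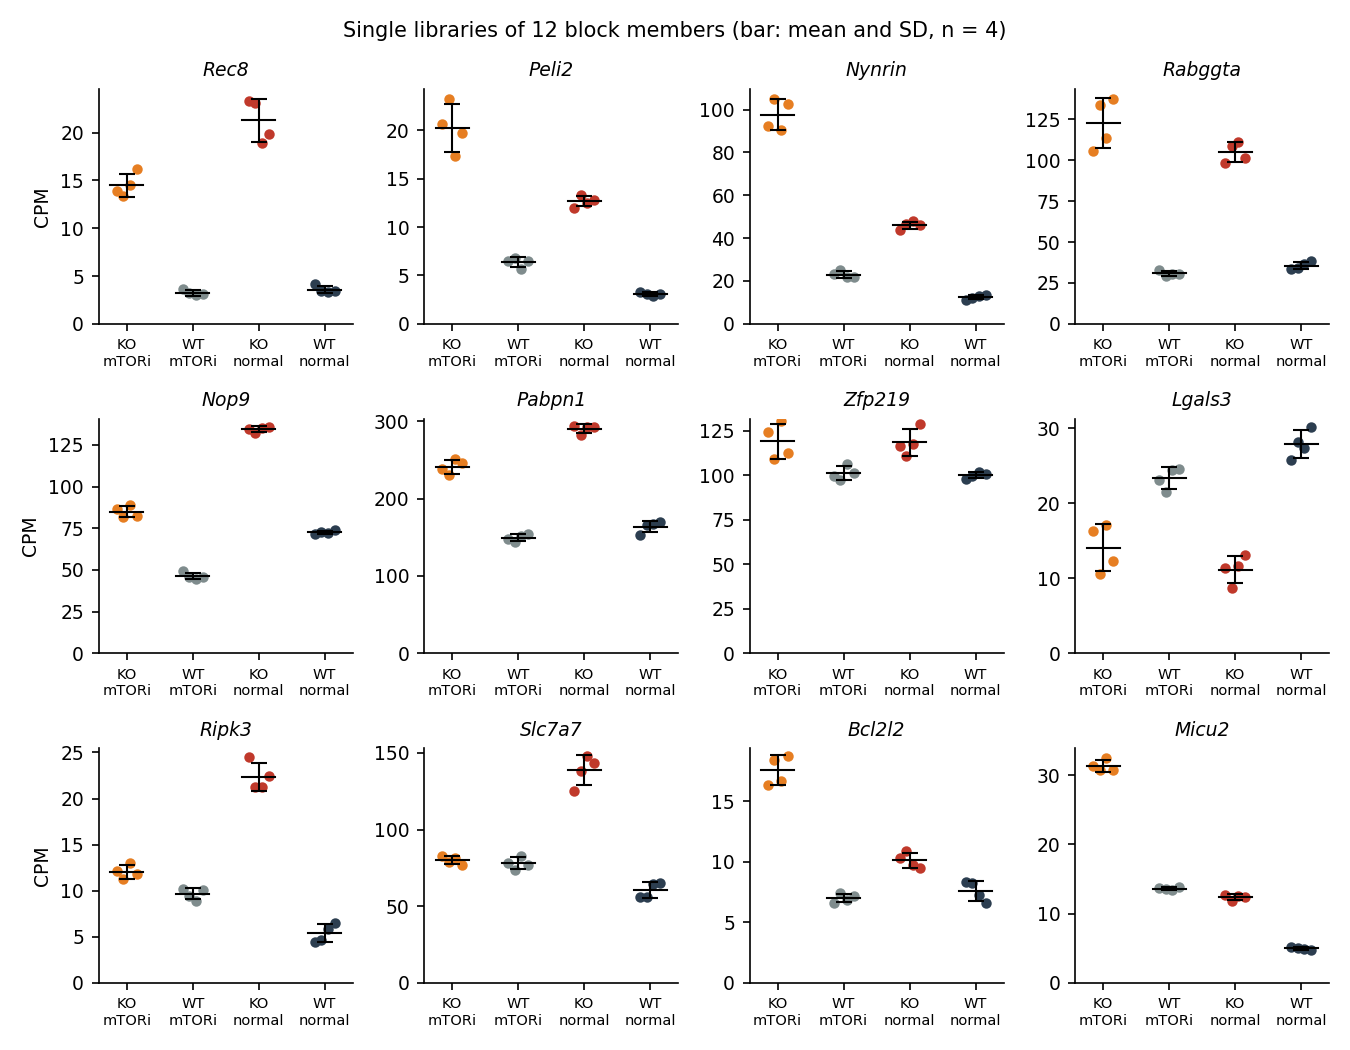
CPM of 12 members in each library (points), with the mean and SD of each group of 4 (bars), in KO and WT under mTOR inhibition and in KO and WT in normal culture. KO libraries lie above WT in both cultures for Rec8, Peli2, Nynrin, Rabggta, Nop9, Pabpn1, Zfp219, Ripk3, Bcl2l2 and Micu2, lie below WT for Lgals3, and meet WT under mTOR inhibition for Slc7a7.

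The 10 members that escaped the shift were Gm8113, Txndc16, Lgals3, Pnp, Gm49342, Zfp219, Hnrnpc, Il17d, Eef1akmt1 and Trim13. Lgals3, which encodes galectin-3, a lectin that binds galactosides (ENSMUSG00000050335.17, 47367751 to 47386160), lay within the run of raised genes and was lower in KO. Under mTOR inhibition Lgals3 had 16.4, 10.6, 17.1 and 12.2 CPM in the KO libraries, against 23.1, 21.5, 24.5 and 24.6 CPM in WT. In normal culture Lgals3 had 11.3, 8.67, 11.6 and 13 CPM in KO, against 25.8, 28.1, 27.3 and 30.2 CPM in WT. No KO library reached the lowest WT library of its culture, and the log2 fold changes were −0.74 ± 0.14 under mTOR inhibition and −1.32 ± 0.14 in normal culture. Gm8113, a predicted gene model at the low end of the interval, was also lower in KO. Under mTOR inhibition Gm8113 had 19.4, 18, 18.4 and 19.3 CPM in the KO libraries, against 50.7, 51.8, 46.8 and 52 CPM in WT. In normal culture Gm8113 had 12.4, 12.2, 12.4 and 13.2 CPM in KO, against 21.4, 20.6, 21.5 and 18.5 CPM in WT. It stands over 1 Mb from the next member, and its log2 fold changes were −1.42 ± 0.05 under mTOR inhibition and −0.71 ± 0.05 in normal culture.

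Pnp, the purine nucleoside phosphorylase, and the gene model Gm49342 overlap each other and Pnp2 on one strand, so the split of reads between them is uncertain. Under mTOR inhibition Pnp had 38.4, 33.8, 41.2 and 34.5 CPM in the KO libraries, against 49.5, 48.8, 50.3 and 53.6 CPM in WT. In normal culture Pnp had 68.7, 65.5, 71 and 72.9 CPM in KO, against 61.2, 59.1, 80.6 and 87 CPM in WT. KO lay below WT under mTOR inhibition, whereas in normal culture the KO libraries lay within the range of the WT ones. Gm49342 had 25.2 to 33.8 CPM in KO and 38.1 to 41.5 CPM in WT under mTOR inhibition, and 49.98 to 60.3 CPM in KO and 43.9 to 69.4 CPM in WT in normal culture, the same pattern.

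Trim13, an E3 ligase of the endoplasmic reticulum (ENSMUSG00000035235.13, 61598247 to 61605946), had a different balance of transcripts in the genotypes. Under mTOR inhibition Trim13 had 16.9, 18.3, 17.2 and 17.1 CPM in the KO libraries, against 15.5, 17.1, 17.1 and 16.4 CPM in WT. In normal culture Trim13 had 16, 14.4, 15.9 and 16.5 CPM in KO, against 19.6, 18.1, 19.4 and 20.2 CPM in WT. The groups overlapped under mTOR inhibition, and KO was lower in normal culture. Trim13-202 was lower in KO, with 7.69 to 9.52 TPM in KO and 10.2 to 11.1 TPM in WT under mTOR inhibition, and 7.18 to 9.90 TPM in KO and 12.6 to 13.2 TPM in WT in normal culture. Trim13-201 was higher in KO under mTOR inhibition, with 9.25 to 12.6 TPM in KO and 6.19 to 7.46 TPM in WT, and overlapped in normal culture, with 4.77 to 9.06 TPM in KO and 2.96 to 5.63 TPM in WT. The zinc finger gene Zfp219 (ENSMUSG00000049295.17, 52006077 to 52020733) was likewise a sum of unlike transcripts. Under mTOR inhibition Zfp219 had 124, 109, 130.1 and 112 CPM in the KO libraries, against 99.5, 97.3, 106 and 101 CPM in WT. In normal culture Zfp219 had 116, 111, 118 and 129 CPM in KO, against 98.1, 99.8, 102 and 101 CPM in WT. Its KO libraries lay above WT by only a little in each culture, with log2 fold changes of 0.23 ± 0.05 under mTOR inhibition and 0.24 ± 0.05 in normal culture. Zfp219-204 alone had 28.1 to 33.6 TPM in KO and 8.39 to 11.6 TPM in WT under mTOR inhibition, and 13.9 to 16.3 TPM in KO and 3.96 to 6.28 TPM in WT in normal culture. Zfp219-201 had 12.7 to 20.7 TPM in KO and 23.7 to 26.9 TPM in WT under mTOR inhibition, and 16.3 to 21.6 TPM in KO and 17.9 to 21.9 TPM in WT in normal culture. A transcript of Zfp219 was thus higher in KO in both cultures, while another was lower in KO under mTOR inhibition and overlapped with WT in normal culture. Division of reads among transcripts of 1 gene is an estimate by kallisto and carries an error not given in the files.

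The remaining members of this class were not below WT in both cultures. Hnrnpc, a packaging protein of nuclear pre-mRNA, was the most abundant member by TPM, with 555 to 593 CPM in KO and 411 to 430.3 CPM in WT under mTOR inhibition, and 649 to 696 CPM in KO and 562 to 579 CPM in WT in normal culture. The groups did not overlap, but the log2 fold changes were only 0.45 ± 0.03 under mTOR inhibition and 0.23 ± 0.03 in normal culture. Il17d, a cytokine of the interleukin-17 family, had 9.88 to 13.1 CPM in KO and 11.8 to 12.6 CPM in WT under mTOR inhibition, and 8.51 to 10.9 CPM in KO and 5.61 to 7.78 CPM in WT in normal culture. It overlapped between genotypes only under mTOR inhibition. Eef1akmt1, a methyltransferase of the elongation factor eEF1A, had log2 fold changes of 0.12 ± 0.09 under mTOR inhibition and 0.41 ± 0.09 in normal culture, and Txndc16, a thioredoxin-like protein of the secretory pathway, had 0.22 ± 0.07 under mTOR inhibition and 0.53 ± 0.08 in normal culture.

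To set the sequence at the start of the genes beside these classes, 300 bases around annotated starts (250 before to 50 after, from RefSeq, GRCm38.p6) were searched for the dinucleotide CG, which marks CpG island promoters and reads the same on both strands. A promoter was found for 92 of the 109 members. The median number of CG was 21.5 in 14 members that exceeded the shift, 24 in 39 that followed, 20 in 34 split and 16 in 5 that escaped. It was 21 over all 92 and 19 over 12191 protein-coding genes tested, which include genes under 8 CPM. Fewer than 10 CG were found in 8.70% of members with a promoter and in 24.9% of all genes with one. By class this held for 0 of 14 that exceeded, 5 of 39 that followed, 1 of 34 split and 2 of 5 that escaped. The 5 that escaped held 1 (Trim13), 9 (Zfp219), 16 (Txndc16), 19 (Il17d) and 22 (Hnrnpc), and Trim13 had the fewest of all 92. Sequences of a member that exceeded, one that followed and one that escaped are given 5′ to 3′ along the gene with each CG in capitals.
Rec8: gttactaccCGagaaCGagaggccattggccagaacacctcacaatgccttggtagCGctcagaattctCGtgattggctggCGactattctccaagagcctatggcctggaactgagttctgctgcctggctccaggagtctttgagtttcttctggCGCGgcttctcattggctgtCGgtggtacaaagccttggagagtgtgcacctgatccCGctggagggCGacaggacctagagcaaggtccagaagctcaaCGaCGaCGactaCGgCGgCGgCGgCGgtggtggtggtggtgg
Nop9: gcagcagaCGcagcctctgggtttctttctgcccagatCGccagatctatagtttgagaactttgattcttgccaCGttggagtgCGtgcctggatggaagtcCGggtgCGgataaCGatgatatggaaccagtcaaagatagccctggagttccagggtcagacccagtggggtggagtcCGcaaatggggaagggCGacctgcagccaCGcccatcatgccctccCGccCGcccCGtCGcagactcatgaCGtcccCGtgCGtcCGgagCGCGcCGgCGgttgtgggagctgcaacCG
Trim13: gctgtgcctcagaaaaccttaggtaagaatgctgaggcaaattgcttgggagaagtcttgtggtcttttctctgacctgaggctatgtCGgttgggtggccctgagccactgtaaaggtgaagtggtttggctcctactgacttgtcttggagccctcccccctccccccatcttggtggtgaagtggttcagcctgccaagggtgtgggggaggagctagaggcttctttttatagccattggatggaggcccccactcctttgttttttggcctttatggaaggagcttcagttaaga
The Rec8 window (chr14:55617916-55618215, plus strand) holds 18 CG at 58.3% GC, the Nop9 window (chr14:55745443-55745742, plus strand) 23 CG at 61.3% GC, and the Trim13 window (chr14:61597976-61598275, plus strand) 1 CG at 52.3% GC. These counts describe the letters of the windows and nothing about their activity.

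Since the KO cells are labelled as lacking a gene of microRNA processing, the members' 3′ untranslated regions (UTRs) were searched for the site of the main ESC microRNA seed. The mature microRNAs of the miR-290 and miR-302 clusters with this seed that were in the RefSeq sequences used (GRCm38.p6) are given below. The list may lack other members of these clusters. They read 5′ to 3′ with the seed, bases 2 to 8, in capitals.
mmu-miR-291a-3p: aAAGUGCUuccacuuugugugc
mmu-miR-294-3p: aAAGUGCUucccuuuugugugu
mmu-miR-295-3p: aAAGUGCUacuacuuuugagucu
mmu-miR-302b-3p: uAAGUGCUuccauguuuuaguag
mmu-miR-302d-3p: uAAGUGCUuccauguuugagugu
Their shared site is the reverse complement of the seed, AGCACTT, sought on the transcript strand of the longest annotated 3′ UTR (GENCODE M21). It was present in 22 of 108 members with a UTR (20.4%), against 2775 of 16675 protein-coding genes tested (16.6%), genes under 8 CPM included. By class it was present in 2 of 15 that exceeded the shift (13.3%), 11 of 45 that followed (24.4%), 8 of 39 that were split (20.5%) and 1 of 9 that escaped (11.1%). Among the members with the largest shift, Rec8 and Nynrin had no match in that window. The 3 matches in members outside the shared shift, Tinf2 (a protein of the shelterin complex at telomeres) and Rabggta above it and Pnp below it, read as follows with the site in capitals.
Tinf2 site: aaagctttgtAGCACTTgaaaattaaa
Rabggta site: ctttaatcctAGCACTTgggaggcaaa
Pnp site: tctgttttccAGCACTTtacatatttg
They lie at chr14:55679157-55679183, minus strand, chr14:55715807-55715833, minus strand and chr14:50953340-50953366, plus strand (GRCm38). The Rabggta site is followed by gggaggc, as are 5 of the 31 sites in members, a run found in the B1 family of repeats. Members with a site are Styx, Gnpnat1, Ddhd1, Socs4, Mapk1ip1l, Exoc5, Osgep, Pip4p1, Pnp, Abhd4, Thtpa, Irf9, Tinf2, Rabggta, Pspc1, Zmym2, Ift88, Sap18, Zdhhc20, Ebpl, Ints6 and Wdfy2, and 11 of these 22 followed the shift.

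By role, the shift was spread over the lists, whose medians are given in brackets, first under mTOR inhibition and then in normal culture. All 15 members in the chromatin and transcription list lay above 0 in both cultures (0.88 and 0.91), with Nfatc4 the highest and Zfp219 the lowest. All 13 RNA processing and transport genes did so too (0.83 and 0.83), from Khnyn to Hnrnpc, as did all 9 DNA repair, replication and telomere genes (0.98 and 1.14), from Rec8 to Apex1, the endonuclease of abasic sites. The 6 cell cycle and centrosome genes (0.70 and 0.95) ran from Cenpj to Ajuba. Of 19 genes of protein turnover, folding and trafficking 18 lay above 0 in both (0.97 and 1.01), all but Trim13. Of 14 metabolic and mitochondrial genes 13 did (1.05 and 1.03), all but Pnp, and the highest was Sdr39u1, a short-chain dehydrogenase-like gene, with 1.17 ± 0.08 under mTOR inhibition and 2.01 ± 0.08 in normal culture. Of 18 signalling and adhesion genes 16 did (0.91 and 0.97). The other 15 members were in no list. Medians of the lists thus lay between 0.70 and 1.14, near that of the block.

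Overlap of genes limits some of these values. Of the 109 members, 44 overlap another protein-coding gene, 11 of them on the same strand and 33 only on the opposite strand. The labels do not say whether the libraries kept strand, so reads of overlapping genes, among them Rab2b and Tox4, Nedd8 and Gmpr2, and Exoc5 and Ap5m1, cannot be fully told apart.

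The response to mTOR inhibition was not used to choose the members and was tested over all 18944 genes (edgeR quasi-likelihood test, Benjamini-Hochberg adjusted p under 0.05). In KO cells 37 of 109 members rose (33.9%, against 34.4% of all genes) and 45 fell (41.3%, against 32.8%). In WT cells 39 rose (35.8%, against 33.3%) and 40 fell (36.7%, against 27.5%). Shares that rose were near those of all genes. Shares that fell were higher, but all genes include those under 8 CPM. The medians over members were −0.01 in KO and −0.02 in WT, against 0.02 in KO and 0.04 in WT over all genes. Over protein-coding genes with at least 8 CPM they were −0.06 in KO and 0.02 in WT. In KO 49.5% of members lay above 0, against 44.8% of these coding genes, and in WT 46.8%, against 52.0%. In both genotypes 21 members rose and 30 fell. By role, 2 of the 13 RNA processing and transport genes rose and 8 fell in KO, and 2 rose and 9 fell in WT. Of the 15 chromatin and transcription genes 6 rose and 4 fell in KO, and 6 rose and 3 fell in WT. Of the 19 genes of protein turnover, folding and trafficking 9 rose and 8 fell in KO, and 7 rose and 8 fell in WT. Of the 14 metabolic and mitochondrial genes 2 rose and 7 fell in KO, and 5 rose and 5 fell in WT. Of the 18 signalling and adhesion genes 5 rose and 8 fell in KO, and 6 rose and 6 fell in WT. The 9 DNA repair genes had 2 that rose and 4 that fell in KO, and 3 that rose and 4 that fell in WT, and the 6 cell cycle genes had 2 and 2 in KO, and 2 and 1 in WT.

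Micu2 had the largest rise in KO. It had 31.4, 30.8, 32.6 and 30.8 CPM in KO under mTOR inhibition, against 12.8, 11.8, 12.6 and 12.5 CPM in KO in normal culture, a log2 fold change of 1.34 ± 0.04 (adjusted p = 2.88e-14). In WT it had 13.7, 13.6, 13.4 and 13.8 CPM under mTOR inhibition, against 5.17, 5.06, 4.86 and 4.8 CPM in normal culture (1.45 ± 0.05, adjusted p = 4.53e-14). No libraries overlapped between cultures in either genotype. Shisa2, which retains receptors for Wnt and FGF ligands in the cell, rose by 0.99 ± 0.12 in KO (adjusted p = 1.65e-06) and by 1.54 ± 0.12 in WT (adjusted p = 1.4e-08). Nynrin rose by 1.08 ± 0.06 in KO (adjusted p = 2.56e-11) and by 0.89 ± 0.06 in WT (adjusted p = 9.26e-10). Neil2 rose by 0.80 ± 0.09 in KO (adjusted p = 4.48e-07) and by 1.25 ± 0.10 in WT (adjusted p = 2.42e-09). Of these, Micu2 and Nynrin exceeded the shift between genotypes, and the other two were split.

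Nedd8, a ubiquitin-like protein that activates cullin ligases, had the largest fall in KO. It had 51.3, 49, 53.9 and 49.5 CPM in KO under mTOR inhibition, against 116, 112, 112 and 114 CPM in KO in normal culture, a log2 fold change of −1.15 ± 0.04 (adjusted p = 1.63e-14). In WT it had 37.2, 35.5, 36.8 and 36.4 CPM under mTOR inhibition, against 65.1, 69.5, 69 and 68.8 CPM in normal culture (−0.90 ± 0.04, adjusted p = 5.62e-13). Its level was lower under mTOR inhibition in every library of either genotype. Ccnb1ip1, a protein of meiotic crossover formation, had a log2 fold change of −1.02 ± 0.05 in KO (adjusted p = 5.09e-12) and −1.29 ± 0.05 in WT (adjusted p = 6.49e-13), the largest fall in WT. The GMP reductase Gmpr2 had −0.77 ± 0.07 in KO (adjusted p = 7.01e-09) and −1.21 ± 0.07 in WT (adjusted p = 4.05e-11), and Kpna3 had −0.85 ± 0.04 in KO (adjusted p = 3.79e-13) and −0.98 ± 0.04 in WT (adjusted p = 1.65e-13). Nedd8 and Gmpr2 overlap at their ends on opposite strands.

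**Figure D5:**
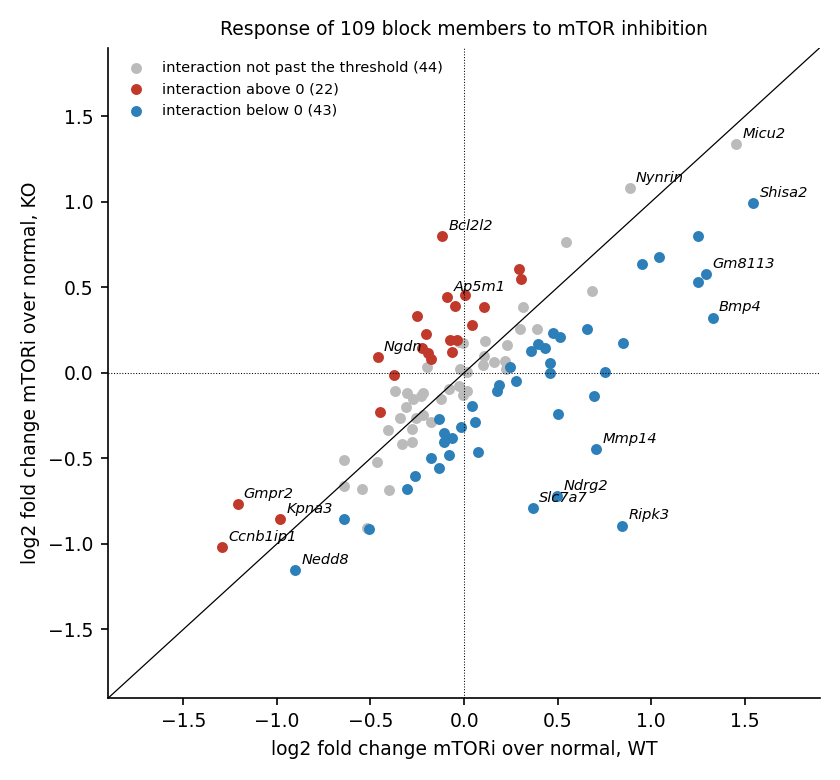
Log2 fold change of the 109 members under mTOR inhibition over normal culture, in WT (horizontal axis) and in KO (vertical axis), with the line of equal response. Of the members, 22 have an interaction above 0 (red), 43 one below 0 (blue) and 44 none past the threshold (grey). Ripk3, Slc7a7, Ndrg2 and Mmp14 lie in the corner of a rise in WT and a fall in KO.

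Whether the KO over WT difference itself changed under mTOR inhibition was tested as an interaction, the difference under mTOR inhibition minus that in normal culture. The choice of the block used the difference in each culture, not the change of it between cultures. The interaction was above 0 for 22 members (20.2%, against 17.4% of all genes) and below 0 for 43 (39.4%, against 24.5%). Replicates 1 and 2 alone gave 23 above and 49 below, and replicates 3 and 4 alone gave 25 above and 33 below. The median over members was −0.11, against −0.03 over all genes and −0.08 over protein-coding genes with at least 8 CPM. Counts by class are not given, since the classes were made from the same values as the interaction. Only 5 members had an interaction of at least 1 in size, Ripk3, Ndrg2, Slc7a7, Mmp14 and Bmp4, all below 0.

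Ripk3, the kinase that triggers necroptosis (ENSMUSG00000022221.14, 55784995 to 55788865), had the largest interaction. Under mTOR inhibition Ripk3 had 12.1, 11.2, 12.9 and 11.8 CPM in the KO libraries, against 10.2, 9.43, 8.92 and 10.1 CPM in WT. In normal culture Ripk3 had 24.5, 21.3, 21.2 and 22.5 CPM in KO, against 4.48, 4.65, 5.86 and 6.53 CPM in WT. KO exceeded WT by little under mTOR inhibition and by far more in normal culture, since under mTOR inhibition the gene fell by 0.89 ± 0.09 in KO cells (adjusted p = 9.88e-08) and rose by 0.85 ± 0.10 in WT cells (adjusted p = 4.81e-07). The interaction was −1.74 ± 0.14 (adjusted p = 2.79e-08). Slc7a7, an exchanger of cationic amino acids (ENSMUSG00000000958.10, 54369442 to 54417780), did not show the shift in its gene sum under mTOR inhibition. Under mTOR inhibition Slc7a7 had 82.6, 79.1, 81.7 and 77.1 CPM in the KO libraries, against 78.4, 73.6, 82.8 and 77.2 CPM in WT. In normal culture Slc7a7 had 125, 138, 148 and 144 CPM in KO, against 56.2, 56.3, 64.8 and 64.8 CPM in WT. The genotypes overlapped under mTOR inhibition and were far apart in normal culture, and the interaction was −1.16 ± 0.08 (adjusted p = 8.05e-09).

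Mmp14, a membrane protease that cuts collagen (ENSMUSG00000000957.11, 54431612 to 54445364), kept KO above WT in both cultures by different amounts. Under mTOR inhibition Mmp14 had 22.8, 21.2, 22.5 and 21.9 CPM in the KO libraries, against 13.4, 12.7, 12 and 12.9 CPM in WT. In normal culture Mmp14 had 28.6, 30.2, 31.6 and 30.1 CPM in KO, against 7.38, 7.35, 8.22 and 8.36 CPM in WT. Its interaction was −1.15 ± 0.08 (adjusted p = 4.01e-09). Ndrg2, a gene known to be repressed by Myc, had 11.3 to 17.3 CPM in KO and 7.8 to 8.98 CPM in WT under mTOR inhibition, and 16.7 to 29.3 CPM in KO and 5.78 to 6.56 CPM in WT in normal culture. Its interaction was −1.22 ± 0.21 (adjusted p = 0.000251), but with replicates 3 and 4 alone it was −0.92 and did not pass (adjusted p = 0.0885). Bmp4, a ligand that acts with LIF to keep ESCs undifferentiated (ENSMUSG00000021835.15, 46383520 to 46390669), varied between WT libraries. Under mTOR inhibition Bmp4 had 76.6, 78.4, 82.1 and 82 CPM in the KO libraries, against 44, 42.2, 38.4 and 34.9 CPM in WT. In normal culture Bmp4 had 59.7, 63.9, 66.9 and 64.6 CPM in KO, against 11.5, 11.7, 19.6 and 20.9 CPM in WT. WT libraries 3 and 4 in normal culture lay well above 1 and 2, but below all KO libraries. Bmp4 rose by 1.33 ± 0.16 under mTOR inhibition in WT (adjusted p = 4.33e-06), and its interaction was −1.005 ± 0.22 (adjusted p = 0.00226).

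In the other direction, the KO over WT difference was larger under mTOR inhibition for Bcl2l2, which encodes the anti-apoptotic protein Bcl-w (ENSMUSG00000089682.10, 54883377 to 54888234). Under mTOR inhibition Bcl2l2 had 16.4, 18.4, 16.7 and 18.8 CPM in the KO libraries, against 6.58, 7.39, 6.83 and 7.2 CPM in WT. In normal culture Bcl2l2 had 10.3, 10.9, 9.73 and 9.51 CPM in KO, against 8.29, 8.21, 7.28 and 6.6 CPM in WT. The groups did not overlap in either culture, and the interaction was 0.92 ± 0.11 (adjusted p = 2.91e-06). Bcl2l2 overlaps the read-through model Gm20521 on its own strand, so its count is uncertain. Ngdn, a factor of ribosome biogenesis, had an interaction of 0.56 ± 0.08 (adjusted p = 2.77e-05), with 65.2 ± 1.26 CPM in KO and 36.5 ± 1.5 CPM in WT under mTOR inhibition, and 61.1 ± 3.79 CPM in KO and 50.4 ± 4.6 CPM in WT in normal culture (SD, n = 4). Ap5m1, a subunit of the adaptor complex AP-5, had 0.53 ± 0.12 (adjusted p = 0.00202), and Ajuba, a LIM protein that restrains the Hippo pathway, had 0.45 ± 0.05 (adjusted p = 2.05e-06). Ajuba held 259 to 274 CPM in KO and 168 to 174 CPM in WT under mTOR inhibition, and 186 to 202 CPM in KO and 165 to 178 CPM in WT in normal culture, so KO stood above WT in each culture and by more under mTOR inhibition.

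Under mTOR inhibition 5 members rose in WT and fell in KO: Ndrg2, Slc7a7, Mmp14, Ripk3 and Zmym2, a zinc finger protein of corepressor complexes. Both calls of Ndrg2 were lost with replicates 3 and 4 alone, where it had −0.38 in KO (adjusted p = 0.186) and 0.53 in WT (adjusted p = 0.124). Zmym2 had −0.11 ± 0.05 in KO (adjusted p = 0.0405) and 0.18 ± 0.04 in WT (adjusted p = 0.0023). The reverse held for 4, Oxa1l (an insertase of the inner mitochondrial membrane), Acin1 (a splicing factor), Rabggta and Trim13, by small amounts. Oxa1l had 0.19 ± 0.03 in KO (adjusted p = 4.48e-05) and −0.08 ± 0.03 in WT (adjusted p = 0.0489), and Acin1 had 0.11 ± 0.04 in KO (adjusted p = 0.0154) and −0.19 ± 0.04 in WT (adjusted p = 0.000273). The calls of Zmym2, Oxa1l and Acin1 were not checked with libraries left out or under other alternatives. For Rabggta the fall in WT (−0.21 ± 0.08, adjusted p = 0.0254) was lost without WT libraries 2, 3 or 4 under mTOR inhibition or WT library 4 in normal culture (−0.20 to −0.17), and was −0.10 with replicates 1 and 2 alone (adjusted p = 0.542). Its rise in KO (0.23 ± 0.07, adjusted p = 0.0117) was lost with replicates 1 and 2 alone (0.21, adjusted p = 0.186) and with 3 and 4 alone (0.24, adjusted p = 0.0602). For Trim13 the rise in KO (0.14 ± 0.05, adjusted p = 0.0223) was lost without KO library 2 of either culture (0.11 to 0.12), with replicates 3 and 4 alone (0.09, adjusted p = 0.17) and without the filter on low counts (0.13, adjusted p = 0.0794). Among members that exceeded the shift, Nfatc4 had an interaction of −0.72 ± 0.08 (adjusted p = 2.02e-06) and Khnyn of −0.46 ± 0.07 (adjusted p = 4.1e-05), both with a larger difference in normal culture. Among those that escaped, Gm8113 had −0.72 ± 0.07 (adjusted p = 6.47e-07) and Il17d −0.68 ± 0.15 (adjusted p = 0.00172).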

How the data were processed

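Poly(A) RNA of 16 libraries was sequenced after RNeasy extraction and NEBNext library preparation, per the labels' protocols. The authors deposited, for each library, estimated counts, TPM and effective lengths per transcript, which were made with kallisto on GRCm38 per the submitters' processing notes. Per the file headers the deposited values include TPM, which are estimated counts scaled by effective length and to a fixed total per library. The kallisto version is not given in the sources used here.

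Of 118489 transcripts, 116728 matched GENCODE M21. The 1761 others were dropped with 0.656 to 0.712% of counts. Summing over the transcripts of each gene gave 35968 genes, and sums were rounded to whole numbers. After edgeR's filterByExpr (minimum count 10) 18944 genes entered 1 robust quasi-likelihood fit over all 16 libraries (edgeR 4.0.16, limma 3.58.1, R 4.3.3), with TMM factors of 0.933 to 1.07. P-values were adjusted by the Benjamini-Hochberg method over all 18944 genes, with a threshold of 0.05. The standard error of a log2 fold change was its size divided by the square root of F. The fit was also run on simulated counts that gave every gene the same spread and held no split between replicates. The outcome of that run is not given here. Promoters were taken where a RefSeq start lay within 5000 bases of the gene's annotated start. Tables were made with pandas 2.3.3 and figures with matplotlib 3.10.9. Counting error is small at 88377380 to 116646028 counts per library, and differences between libraries are described by the SD over 4 per group. None of 24 pairs of libraries within groups agreed within sampling noise, which does not show that they came from separate cultures. Each library was counted as 1 sample.

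Members, role lists and classes were chosen with earlier results of these data known. Genes named in the text are the 8 highest and 8 lowest members by the mean log2 fold change of KO over WT, the 3 nearest the median, the 5 largest called changes in each direction for the interaction and for mTOR inhibition in each genotype, the genes next to the limits, the 3 with most TPM and the highest and lowest of each role list. Mettl3, Supt16, Fermt2, Tinf2, Zmym2, Oxa1l, Acin1 and the lists of whole classes fall outside this rule and were named after their values were seen. Alternatives were DESeq2 1.42.0, length-scaled TPM counts, no filter, fits of only the groups compared, a replicate block, other CPM limits and margins, and each library left out. Fits of replicates 1 and 2 only and of 3 and 4 only were chosen after seeing the data. Long noncoding RNAs were not analysed here, and 1 gene that the rule names is not reported here.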

Additional observations from a re-analysis of the deposited data

Results flagged for a closer look

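In 7 of 176 groups of 4 libraries (44 named members in 4 groups), 1 library lay far from the other three, where chance gives about 1 in 20. For Rec8 a WT library in normal culture had 4.163 CPM, against 3.362 to 3.385 CPM in the others. For Gmpr2 a WT library in normal culture had 13.33 CPM (others 11.56 to 11.63), and for Nedd8 one had 65.07 CPM (others 68.83 to 69.5). For Ap1g2 a WT library under mTOR inhibition had 6.628 CPM (others 6.145 to 6.212). For Nfatc4 a KO library under mTOR inhibition had 33.03 CPM (others 36.37 to 36.81), and for Neil2 one had 15.4 CPM (others 17.64 to 18.05). For Pabpn1 a KO library in normal culture had 282.6 CPM (others 292.5 to 294.2).

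The KO over WT difference changed between cultures for 34 named members, by the interaction test (edgeR quasi-likelihood test, adjusted p under 0.05). The difference was smaller under mTOR inhibition, or further below 0, for Ripk3 (−1.74), Ndrg2 (−1.219), Slc7a7 (−1.158), Mmp14 (−1.153), Bmp4 (−1.005), Sdr39u1 (−0.833), Nfatc4 (−0.722), Gm8113 (−0.717), Il17d (−0.677), Shisa2 (−0.554), Khnyn (−0.457), Neil2 (−0.452), Cenpj (−0.343) and Nedd8 (−0.253). It was larger under mTOR inhibition, or less far below 0, for Bcl2l2 (0.916), Lgals3 (0.582), Ngdn (0.555), Ap5m1 (0.532), Ajuba (0.448), Gmpr2 (0.442), Rabggta (0.431), Trim13 (0.369), Ccnb1ip1 (0.277), Ttc5 (0.246), Wdfy2 (0.239) and Hnrnpc (0.221). All of these 26 calls held when any 1 of the 16 libraries was left out.

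The other 8 interactions were lost without some libraries. Rec8 (−0.42) gave −0.35 without WT library 2 in normal culture and −0.17 with replicates 3 and 4 alone. Apex1 (−0.322) gave −0.25 without WT library 2 in normal culture, and Peli2 (−0.363) gave −0.28 without WT library 3 in normal culture. Pnp (−0.401) lost its call without any of 11 libraries (−0.41 to −0.28), Pabpn1 (−0.136) without any of 13 (−0.14 to −0.10), and Rab2b (−0.228) without any of 7 (−0.22 to −0.16). Txndc16 (−0.311) lost it without any of 7 (−0.29 to −0.24) and Kpna3 (0.129) without any of 7 (0.10 to 0.13).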

How the results depend on the processing

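The median log2 fold change of the members under mTOR inhibition, 0.90, was 0.955 over members with at least 4 CPM, 0.874 over those with at least 16 CPM, 0.856 with replicates 1 and 2 only and 0.926 with replicates 3 and 4 only, and ran from 0.885 to 0.949 when each library was left out. In normal culture it was 0.963 with length-scaled TPM counts. With at least 16 CPM, 24 members rose in WT under mTOR inhibition, from a shorter list. A margin of 0.2 gave 22 that followed and 18 that escaped, and a margin of 0.5 gave 69 that followed. Every other count over the members stayed within 1.5 times its value under the alternatives run. Among 5279 values of named genes, none that passed the threshold in the main fit changed direction. For KO over WT, values short of it were not checked for direction, so a change of sign near 0 was not counted. Of all values 120 lost their call. Another 210, untested, moved by more than the SD of log2 CPM over the KO libraries of their culture. Ccnb1ip1 lost its interaction with length-scaled TPM counts (0.04), as did Rec8 (−0.29). Lgals3 lost its interaction without the filter (0.57), and Shisa2 (−0.44) and Rabggta (0.31) lost theirs with replicates 1 and 2 only. The cause was not tested.

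The libraries were treated as unpaired, since the labels name nothing shared by a number and not every same-numbered pair deviated together. Deviations of same-numbered libraries had r from −0.226 to 0.417 (median 0.106, 13 of 24 over 0.1), and those with other numbers from −0.497 to 0.385 (median −0.016, 13 of 72 over 0.1). With a replicate block the medians were 0.89 under mTOR inhibition and 0.941 in normal culture, the interaction was above 0 for 22 members and below 0 for 44, and among named genes Kpna3 lost its interaction (0.13, adjusted p = 0.055).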
